A study of Homo sapiens with 2 samples.

Results

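Aminoacyl-tRNA synthetases are the enzymes that load each tRNA with its amino acid. They were followed here with the scaffold proteins of the multisynthetase complex, in RNA from cells labelled as OVCAR-3, a long-established human ovarian carcinoma line. Members were the rows of the expression table whose gene symbol was among 39 names, and 36 of the 28038 listed genes matched. VARS1, VARS2 and SARS2 had no row and were not analysed here. The 36 comprised 17 cytosolic enzyme genes, 14 mitochondrial ones, GARS1 and KARS1, which each supply both compartments, and the scaffold genes AIMP1, AIMP2 and EEF1E1. Poly(A) RNA came from 1 control culture (OVCAR3-NC), which carried a blank viral vector, and 1 culture (OVCAR3-OE) that overexpressed IGF2BP3, an RNA-binding protein that recognises m6A marks. The labels give no promoter for the transgene, do not say whether either line is a clone, and name no other agent.

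Each synthetase recognises an amino acid and the tRNAs that decode it, and joins them at the cost of ATP. Cytosolic and mitochondrial enzymes are mostly encoded by separate nuclear genes. In animal cells several cytosolic enzymes sit together on scaffold proteins in the multisynthetase complex. Lack of an amino acid or of a charged tRNA is sensed by the kinase GCN2, and the transcription factor ATF4 then activates many cytosolic synthetase genes.

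Counts summed to 43190215 for the control and to 48017861 for overexpression. IGF2BP3 went from 2944 counts (67.9 CPM, counts scaled to a common library size) to 6376 (133 CPM), a ratio of 1.96 with a 95% counting interval of 1.88 to 2.05. Of 9 epithelial markers, 8 were listed, and CDH1 had 2 counts in each library while KRT18 stood at 103 and 102 CPM. Of 7 serous carcinoma and Mullerian markers, 3 were listed, the highest being PAX8 with 28 and 32 counts. The epithelial marker EPCAM had 57 and 56 counts. Most defining markers of the serous ovarian type, and the epithelial CDH1, thus had no row or were near 0 in both libraries. These low levels do not bear out the name OVCAR-3, which rests on the labels alone, and the identity of the cells was not tested. VIM, a mesenchymal filament gene, was at 2175 and 2149 CPM, and the 3 listed leukocyte markers summed to 2 and 8 counts. There was no replicate, so no test was possible and every ratio compares 2 libraries. Intervals are exact (Clopper-Pearson) and cover counting error only.

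The 36 synthetase and scaffold genes stood close to their control levels, with IARS1 as the exception. IARS1, the cytosolic isoleucyl enzyme, was at 0.103 times its control level. No other member differed by 1.5-fold or more on the scale of CPM plus 1, which 1.66% of measured genes did (1.02% higher and 0.643% lower). Measured genes are the 14157 with a sum of 50 or more counts in the 2 libraries. At 2-fold IARS1 was again alone, where 0.678% of measured genes differed (0.381% higher and 0.297% lower). At 1.2-fold AIMP2 and AARS2 joined it, so that 3 members were lower (5.74% of measured genes) and 0 higher (7.49%). The other 35 ranged in log2 ratio (overexpression over control, each as CPM plus 1) from -0.30 in AIMP2 to 0.16 in IARS2. Of all 36, 11 were above 0 and 25 below, where 51.1% of all measured genes were above 0 and 48.9% below. Their median was -0.036 and that of all measured genes 0.0042.

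Every one of the 36 passed the minimum, the shallowest being PARS2 with 278 and 335 counts. The counting interval lay above 1-fold in 5 members, where 22.8% of all measured genes did so, and below 1-fold in 18, where 18.6% did. The 23 on one side compare with 41.4% of measured genes. Among the 9373 genes within the members' own range of counts, 27.1% lay above and 21.2% below, while 52% had a log2 ratio above 0 and 48% below. Even counts were in surplus among low values (64.1% of control counts from 1 to 20 and 63.3% of those from overexpression), so intervals were also computed from halved counts. From these, 3 members lay above (15.9% of all genes) and 13 below (10.9%).

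**Figure D1:**
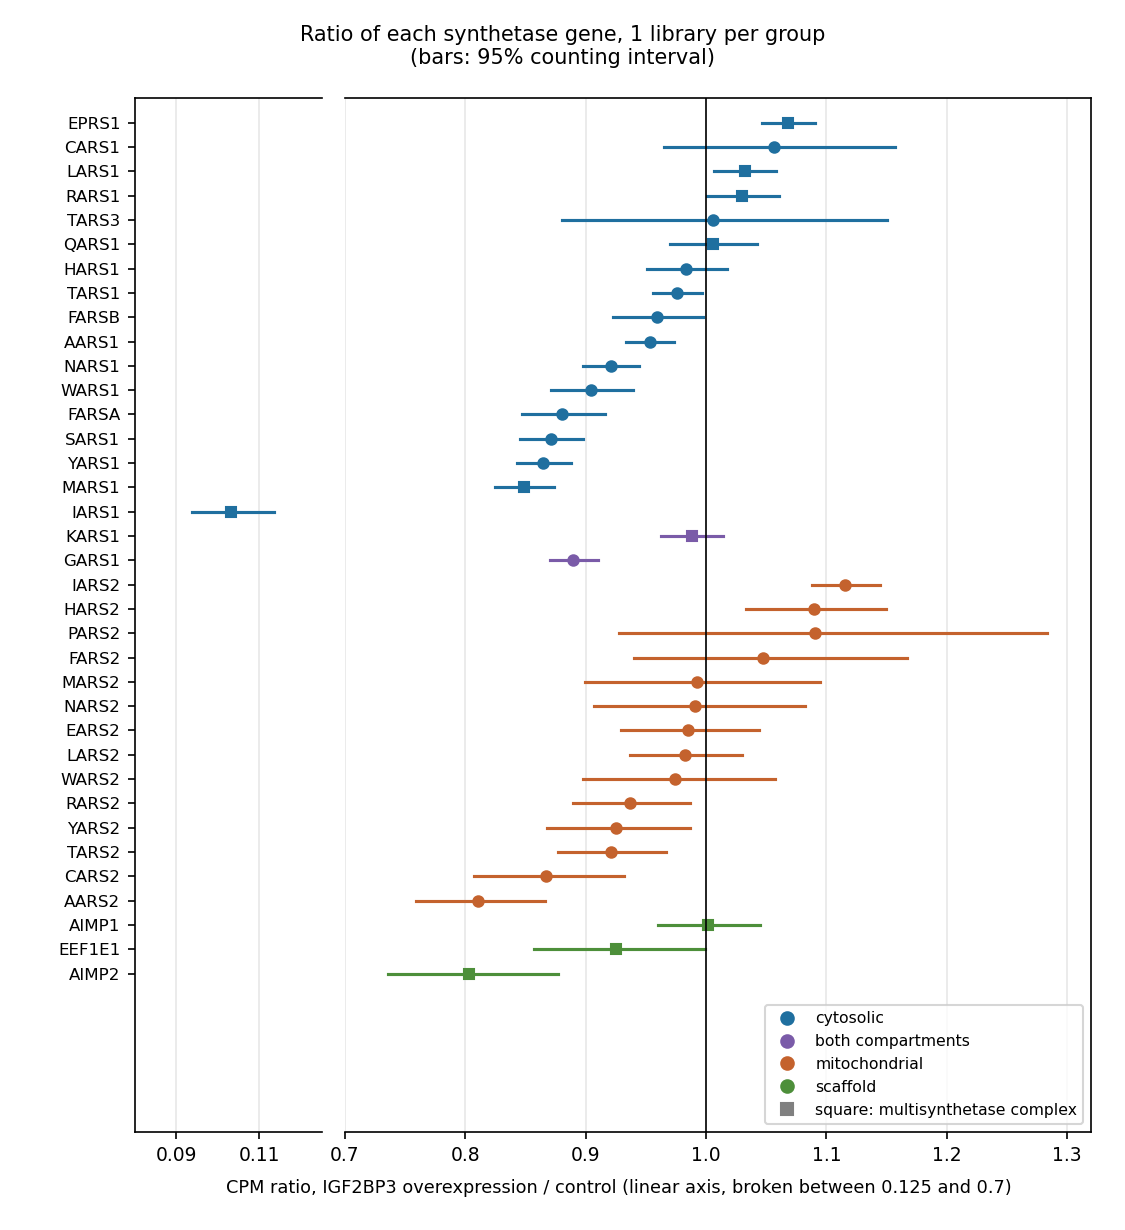
Ratio of CPM in the overexpression library over the control library for each of the 36 genes on a broken linear axis, with points coloured by group, squares for the multisynthetase complex and bars for the 95% counting interval. IARS1 stands alone at 0.103, and the other 35 genes lie between 0.803 and 1.12.

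Promoter sequence is shown because the ATF4 site is the element that many cytosolic synthetase genes are known to share, IARS1 among them. Windows from 250 bases before to 50 after each annotated start came from RefSeq (GRCh38.p14) and covered 32 of the 36 genes. The letters TGATGNAA, the core of the ATF4 composite site, were searched on both strands. They were found in 8 of the 32 genes, against 4.46% of all 27305 genes with a window. By group they were found in 6 of 14 cytosolic genes, in GARS1, and in 1 of 13 mitochondrial genes. The 8 sites are printed 5′ to 3′ in the direction of the gene, with the matching letters in capitals.
AARS1, chr16:70289675-70289704, minus strand: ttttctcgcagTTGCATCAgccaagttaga
CARS1, chr11:3057407-3057436, minus strand: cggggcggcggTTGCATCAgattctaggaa
GARS1, chr7:30594834-30594863, plus strand: ttacgcggcgaTTTCATCAtgctccgagcc
IARS1, chr9:92293692-92293721, minus strand: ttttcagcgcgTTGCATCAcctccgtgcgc
MARS1, chr12:57488053-57488082, plus strand: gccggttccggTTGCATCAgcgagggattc
NARS1, chr18:57621804-57621833, minus strand: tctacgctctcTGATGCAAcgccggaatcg
TARS1, chr5:33440956-33440985, plus strand: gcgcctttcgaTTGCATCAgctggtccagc
YARS2, chr12:32756076-32756105, minus strand: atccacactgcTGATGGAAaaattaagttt
Of these sites, 6 carry the same letters, TTGCATCA or their reverse complement, while GARS1 and YARS2 each have another base at the free position. The IARS1 match begins 13 bases before the annotated start and the AARS1 match 187 bases before it. A match describes these letters only and is not evidence of binding.

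The 8 genes with the letters had log2 ratios from -3.15 in IARS1 to 0.076 in CARS1, 7 of them below 0, with a median of -0.11. The 24 without them ranged from -0.30 to 0.16, 16 below 0, with a median of -0.022. Apart from IARS1, the 2 ranges overlap. The motif of NRF1, a factor known for nuclear genes of mitochondrial function, was searched on both strands as well and was found in 3 of 13 mitochondrial genes and 3 of 14 cytosolic ones, against 6.98% of all genes. The scaffold gene AIMP2 held it too. TARS1 held both motifs, in different places. In IARS2, the member with the highest ratio, the NRF1 match, in capitals, reads as follows.
IARS2, chr1:220094106-220094135, plus strand: cgctcccggaGCGCGTGCGCcctcttactc
The 7 genes with this motif had a median log2 ratio of -0.035 and the 25 without it -0.036.

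IARS1 (ENSG00000196305; GRCh38 chromosome 9, 92210207 to 92293756, minus strand, protein coding) had 4177 counts, 96.4 CPM, in the control library. In the overexpression library it had 476 counts, 9.94 CPM. That is a level 9.69-fold lower (8.81 to 10.7), and halved counts widened the interval to 8.47 to 11.1. Its log2 ratio of -3.15 was the 6th lowest of the 14157 measured genes. Among the 500 genes nearest to it in control CPM, from 87.9 to 106 CPM, none was 2-fold lower or more. The authors' own deposited log2 fold change for IARS1 was -3.29.

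IARS1 was the least abundant enzyme of the multisynthetase complex in the control already. Levels between genes are compared here per length, with the authors' FPKM (fragments per kilobase, scaled to library size). IARS1 stood at 4.31 FPKM in the control, rank 29 of 36, and at 0.442 with overexpression, the lowest of all 36. The gene length behind the authors' FPKM was 22418 bases for IARS1, the longest of any member, and such lengths reached down to 1828 bases in AIMP2. Per kilobase of its longest coding transcript in GENCODE, 4656 bases, IARS1 was at 20.7 CPM per kb in the control, rank 23, and at 2.14 with overexpression, rank 36. On that scale its level was 26.8% of that of EPRS1 and 36.6% of that of LARS1 in the control. With overexpression the shares were 2.59% and 3.65%. IARS1 held 5.65% of all counts of the complex's 10 genes in the control and 0.615% in the overexpression library.

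Around IARS1, 13 other genes passed the minimum within 1 Mb, with a median log2 ratio of 0.026. On the scale of CPM plus 1, only CENPP among them, a centromere protein gene on the opposite strand, was 1.5-fold different or more. On plain CPM an unnamed gene (ENSG00000275318) with 79 and 133 counts also was, at 1.52 (1.15 to 2.04). CENPP had 100 counts in the control and 7 in the overexpression library, at 0.0634 times its control level (0.0248 to 0.135). NOL8, which lies between IARS1 and CENPP, had 843 and 852 counts, at 0.915 times (0.831 to 1.01). SPTLC1, on the other side, had 5006 and 5630 counts. No listed gene past the minimum overlapped IARS1, and 2.33% of its 31-base words occurred in transcripts of another gene. Only gene totals were used, so a difference in the RNA of IARS1 or CENPP and a difference in how reads were assigned to these genes cannot be told apart here.

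**Figure D2:**
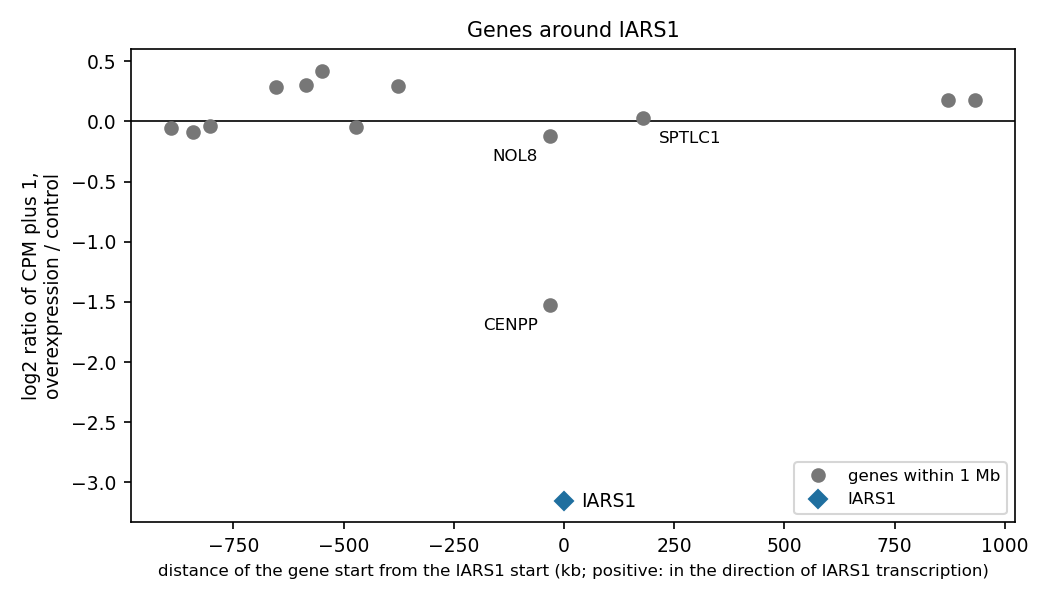
Log2 of CPM plus 1 in overexpression over that in the control for IARS1 and the 13 genes past the minimum within 1 Mb, against the distance of each gene's start from that of IARS1 in kb. IARS1 at -3.15 and CENPP at -1.53 are low, and the other 12 lie between -0.12 and 0.42.

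The partner of IARS1 in mitochondria stood at the other end. IARS2, the mitochondrial isoleucyl enzyme (ENSG00000067704; chromosome 1, 220094102 to 220148041, plus strand), had 10933 and 13476 counts, or 252 and 282 CPM. Its ratio of 1.12 (1.09 to 1.14) was the highest of the 36. Its neighbour EPRS1, on the opposite strand of the same stretch of chromosome 1, had the highest ratio of the cytosolic enzymes. Divided by the ratio of IARS1, that of IARS2 was 10.8 (9.81 to 11.9). In FPKM, IARS2 was 14.2 times IARS1 in the control and 153 times with overexpression. The size of this gap depends on the gene length used. In FPKM, IARS1 was at 7.05% of IARS2 in the control and 0.652% with overexpression. Per kilobase of the longest coding transcript, IARS1 was at 29.2% and 2.70%.

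The cytosolic enzymes had a median log2 ratio of -0.059, or -0.047 without IARS1. Of 17, 6 were above 0 (51.1% of measured genes) and 11 below (48.9%), or 4 and 13 when libraries were scaled by their totals. The interval lay below 1-fold in 10 (18.6% of measured genes) and above in 3 (22.8%). Within the members' range of counts the shares were 21.2% and 27.1%. Intervals narrow with depth, and these enzymes had a median of 199 CPM in the control against 22.2 for all measured genes, so the shares are not matched for depth. From halved counts the interval lay below in 8 (10.9%) and above in 1 (15.9%). MARS1, the methionyl enzyme, was lowest after IARS1, with 9391 and 8807 counts and a ratio of 0.849 (0.825 to 0.874). YARS1, for tyrosine, had 11730 and 11207 counts and a ratio of 0.865 (0.843 to 0.888). SARS1, for serine, had 8867 and 8534 counts and a ratio of 0.871 (0.846 to 0.898). These enzymes were abundant and their intervals narrow, and they differed from control by less than 1.2-fold.

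FARSA and FARSB encode the subunits of the cytosolic phenylalanyl enzyme, which pairs them in equal number. FARSA was at 0.881 (0.847 to 0.916) and FARSB at 0.959 (0.923 to 0.998), so their intervals did not overlap. From halved counts they did, at 0.833 to 0.931 and 0.908 to 1.01. WARS1, for tryptophan, stood at 0.905 (0.871 to 0.939), NARS1, for asparagine, at 0.921 (0.898 to 0.944) and AARS1, for alanine, at 0.953 (0.933 to 0.973). TARS1, for threonine and the highest member by FPKM at 90.5 and 87.7, was at 0.976 (0.956 to 0.997), an interval that included 1-fold from halved counts. Per kilobase of the longest coding transcript GARS1 ranked 1st and TARS1 7th in the control. Its relative TARS3, a second threonyl enzyme, was far lower at 2.19 FPKM in each library, with a ratio of 1.01 (0.88 to 1.15). HARS1, for histidine, at 0.984, QARS1, for glutamine, at 1.01 and CARS1, for cysteine, at 1.06 had intervals that included 1-fold.

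On the higher side, EPRS1 (ENSG00000136628; chromosome 1, 219968601 to 220046658), which joins a glutamyl and a prolyl enzyme in a single chain, had 16773 and 19790 counts and a ratio of 1.07 (1.05 to 1.09). LARS1, for leucine, was at 1.03 (1.01 to 1.06) and RARS1, for arginine, at 1.03 (1.00 to 1.06). The intervals of LARS1 and RARS1 included 1-fold from halved counts. Of the enzymes that serve both compartments, GARS1, for glycine, was at 0.890 (0.870 to 0.910), and KARS1, for lysine, at 0.988 (0.963 to 1.01).

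The multisynthetase complex had a median log2 ratio of -0.0077 over its 10 measured genes, or 0.0021 without IARS1. It split evenly, with 5 above 0 (51.1% of measured genes) and 5 below (48.9%). Under scaling by library totals 3 were above and 7 below. Of the 10, 6 were below the median of all measured genes. Among its enzymes EPRS1, LARS1, RARS1 and QARS1 were above 0, and KARS1, MARS1 and IARS1 below. Cytosolic enzymes outside the complex had 2 of 11 above 0 (51.1% of measured genes) and a median of -0.069. The scaffold genes differed among themselves. AIMP2 (ENSG00000106305; chromosome 7, 6009245 to 6023834, plus strand), which bridges parts of the complex, had 1091 and 968 counts and a ratio of 0.803 (0.736 to 0.877), the lowest of any member but IARS1. EEF1E1, the smallest scaffold protein, was at 0.925 (0.857 to 0.999), and AIMP1, which binds tRNA, at 1.00 (0.960 to 1.04). From halved counts the interval of EEF1E1, 0.829 to 1.03, included 1-fold. EEF1E1 shares 17.4% of its 31-base words with the gene EEF1E1-BLOC1S5. AIMP2 overlaps EIF2AK1 on the opposite strand, with which it shares 26.6% of its 31-base words, and EIF2AK1 had a ratio of 1.02.

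Summed over the complex, its genes held 0.171% of all control counts (0.170 to 0.172) and 0.161% of all overexpression counts (0.160 to 0.162). Without IARS1 the shares were 0.161% and 0.160%. All 36 members held 0.495% (0.493 to 0.497) and 0.465% (0.464 to 0.467). Without IARS1 they held 0.486% and 0.464%, so most of that difference lay in the other members.

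The mitochondrial enzymes had a median log2 ratio of -0.023, with 4 of 14 above 0 (51.1% of measured genes) and 10 below (48.9%). The interval lay below 1-fold in 5 (18.6% of measured genes), above in 2 (22.8%) and on both sides of it in 7. Within the members' range of counts the shares below and above were 21.2% and 27.1%. AARS2, for alanine (ENSG00000124608; chromosome 6, 44299654 to 44313326, minus strand), had 1890 and 1693 counts and the lowest ratio, 0.811 (0.759 to 0.866). CARS2, for cysteine, was at 0.867 (0.807 to 0.932) and TARS2, for threonine, at 0.921 (0.877 to 0.967). YARS2, for tyrosine, at 0.926 and RARS2, for arginine, at 0.937 had intervals below 1-fold that included it from halved counts. HARS2, for histidine, had 2501 and 3011 counts and stood with IARS2 on the higher side, at 1.09 (1.03 to 1.15).

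The remaining mitochondrial enzymes stood near 1-fold. WARS2 for tryptophan was at 0.974, LARS2 for leucine at 0.982, EARS2 for glutamate at 0.985, NARS2 for asparagine at 0.990 and MARS2 for methionine at 0.992. FARS2 for phenylalanine was at 1.05 and PARS2 for proline at 1.09, with 278 and 335 counts and an interval of 0.928 to 1.28. At that depth a difference of this size in PARS2 was not detectable. Together the mitochondrial enzymes held 0.0791% of control counts (0.0783 to 0.0800) and 0.0792% of overexpression counts (0.0784 to 0.0800). The cytosolic enzymes held 0.340% (0.338 to 0.341) and 0.315% (0.314 to 0.317), and 0.330% and 0.314% without IARS1.

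Cytosolic enzymes were the more abundant set per length. Their median was 28.2 FPKM in the control and 26.1 with overexpression, against 6.55 and 6.36 FPKM for the mitochondrial enzymes. IARS2, at 61.2 and 67.9 FPKM, was the exception among the latter and ranked 5th of all 36 in the control library. YARS2, the next mitochondrial enzyme, was at 20.2 and 18.6 FPKM. NARS2 was lowest in the control, at 1.37 FPKM, over a gene length of 16377 bases. Per kilobase of the longest coding transcript NARS2 ranked 31st of 36 in the control, and TARS3 was lowest. The median level of cytosolic over mitochondrial enzymes was 4.31 in FPKM and 3.98 per kilobase of the longest coding transcript in the control. With overexpression it was 4.10 on each scale.

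**Figure D3:**
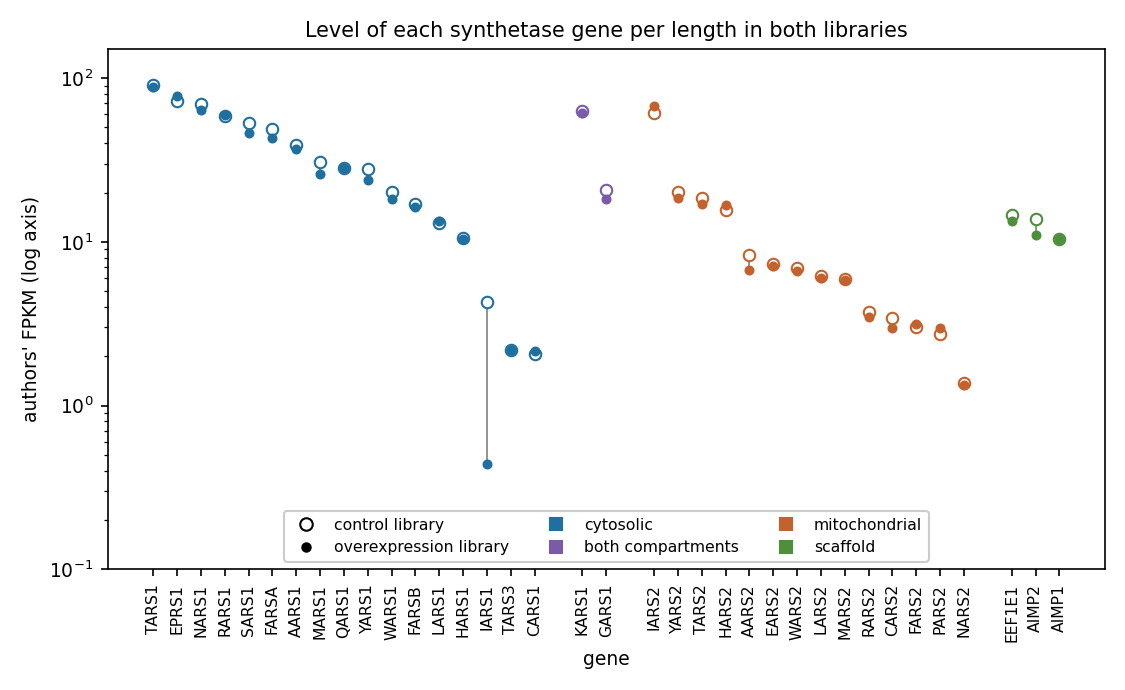
The authors' FPKM (log axis) of each gene with the control shown as open circles and overexpression as filled circles, ordered within each group by the control level. The circles nearly coincide except in IARS1, which goes from 4.31 to 0.442 FPKM.

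Enzymes for the same amino acid were then set side by side. Such a pair needs no scaling between libraries, since the mitochondrial ratio is divided by the cytosolic one. Among 15 pairs, 9 had the higher ratio in the mitochondrial and 6 in the cytosolic enzyme. EPRS1 and FARS2 each enter 2 pairs. The large-sample counting interval of this quotient lay above 1 in 4 pairs and below 1 in 5. Apart from isoleucine, the pairs above 1 were FARS2 over FARSA at 1.19 (1.06 to 1.33), MARS2 over MARS1 at 1.17 (1.06 to 1.29) and HARS2 over HARS1 at 1.11 (1.04 to 1.18). Those below 1 were CARS2 over CARS1 at 0.821 (0.732 to 0.920), AARS2 over AARS1 at 0.851 (0.794 to 0.911), and the pairs for arginine, glutamate and threonine. Quotients were not computed from halved counts, which would widen their intervals. The upper ends for glutamate (0.981) and threonine (0.995) lay close to 1. Mitochondrial and cytosolic partners thus differed in either direction, with no side common to all amino acids.

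HARS1 and HARS2 lie head to head on chromosome 5 and overlap. They shared 5.02% of HARS1's 31-base words and 9.80% of those of HARS2, so the split of reads between them is uncertain. In FPKM, HARS2 was 1.47 times HARS1 in the control and 1.63 times with overexpression. Per kilobase of the longest coding transcript the order turned, with HARS1 at 1.86 and 1.68 times HARS2. The cytosolic enzyme was the higher of the pair in 12 of 15 pairs by FPKM and in 13 by the other length, in each library.

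**Figure D4:**
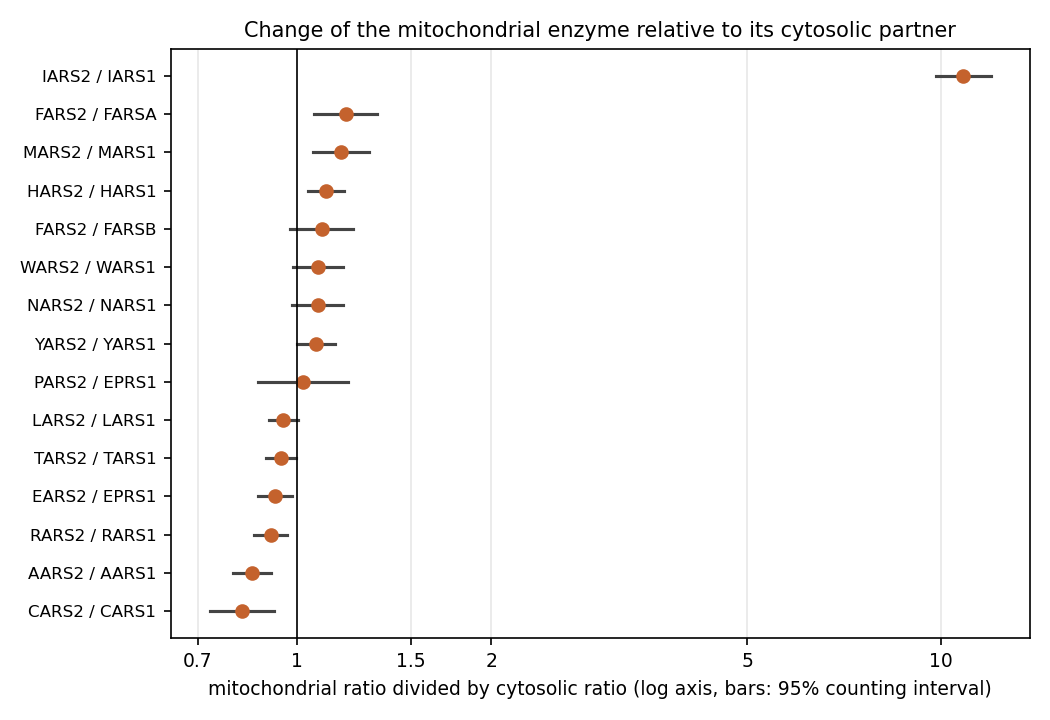
Ratio of each mitochondrial enzyme divided by that of its cytosolic partner, on a log axis with 95% counting intervals, for 15 pairs. IARS2 over IARS1 lies at 10.8, and the other 14 pairs lie between 0.821 and 1.19.

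Synthetases fall into class I and class II, which have unrelated catalytic folds. Class I enzymes had 5 of 16 above 0 (51.1% of measured genes) and a median of -0.031, or -0.025 without IARS1. Class II enzymes had 4 of 16 above 0 (51.1%) and a median of -0.047. EPRS1, with an enzyme of each class, was left out of this count.

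Of the 12 synthetases widely described as ATF4-responsive, 9 were below 0 and 3 above, with a median log2 ratio of -0.13, or -0.12 without IARS1. The 3 above were EPRS1, CARS1 and LARS1. For comparison, 25 of all 36 members were below 0, and 48.9% of measured genes. Genes of uncharged tRNA sensing and the ATF4 response had 9 of 14 below 0 and a median of -0.096. CHAC1, a glutathione-degrading enzyme and ATF4 target, was lowest with 156 and 78 counts and a log2 ratio of -0.81. DDIT3, which encodes the factor CHOP, followed at -0.54 with 755 and 558 counts. MARS1 overlaps DDIT3 on the opposite strand, and the counter's strand setting is not given in the sources used here. ATF4 itself had 8605 and 8484 counts, a ratio of 0.893 (0.866 to 0.920). On the higher side were SLC7A11, a cystine transporter, at 0.48 and EIF2AK4, which encodes GCN2, at 0.15.

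**Figure D5:**
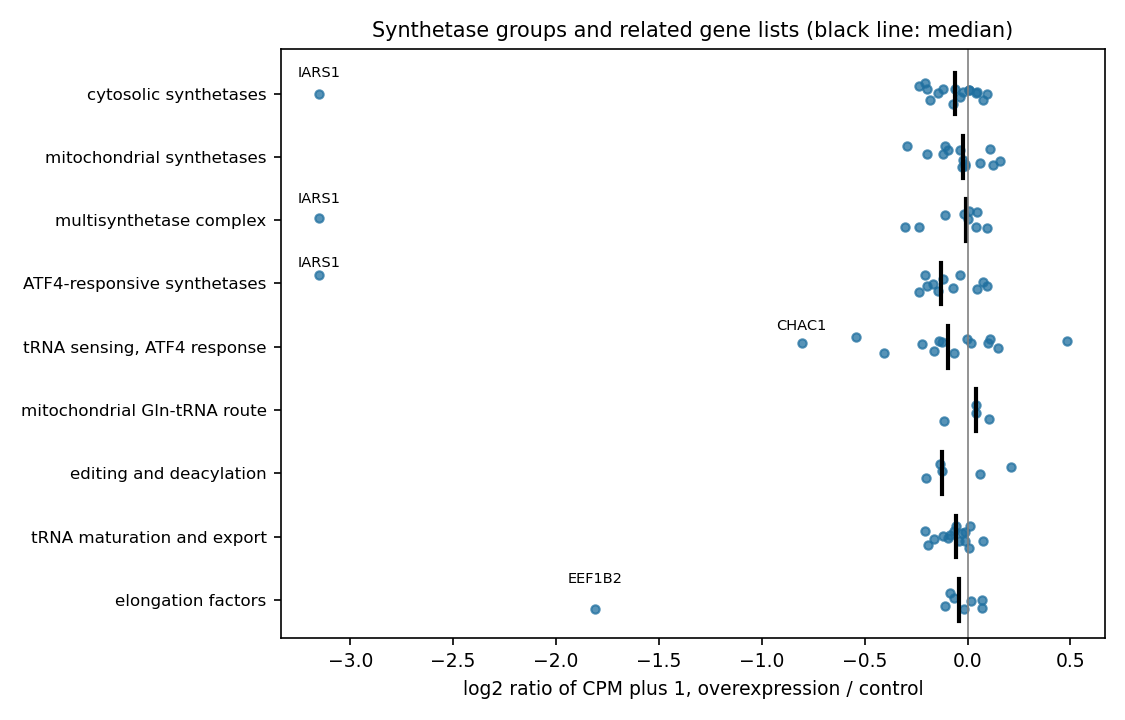
Log2 of CPM plus 1 in overexpression over that in the control for each gene past the minimum in the synthetase groups and 6 related lists, with a black line at each median. IARS1 at -3.15, EEF1B2 at -1.81 and CHAC1 at -0.81 stand apart, and the medians run from -0.13 to 0.040.

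Mitochondria lack a glutaminyl enzyme and make glutaminyl-tRNA by an amidotransferase. Of its subunits, GATB and GATC were each at 1.03, and QRSL1, with 2766 and 2815 counts, was at 0.921 (0.874 to 0.971). MTFMT, which formylates the initiator methionyl-tRNA, was at 1.08 (0.997 to 1.17). Among editing and deacylation genes 3 of 5 were below 0 (48.9% of measured genes). They ran from PTRH2 at -0.20 and AARSD1 at -0.13 to PTRHD1 at 0.059 and DTD2 at 0.21. Of tRNA maturation and export genes, 12 of 15 were below 0 (48.9% of measured genes) with a median of -0.056. The RNA kinase CLP1 at -0.21 and the RNase P subunit RPP40 at -0.19 were lowest, and POP1 at 0.073 and SSB at 0.012 highest. XPOT, the tRNA exporter, had 18709 and 20059 counts, a ratio of 0.971.

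Elongation factors carry the charged tRNA onward. Of 8 measured, 5 were below 0 (48.9% of measured genes) with a median of -0.040. EEF1B2, a nucleotide exchange subunit of the complex that recharges EEF1A, had 11337 control counts and 3534 overexpression counts, at 0.282 times its control level (0.272 to 0.293). As for IARS1, gene totals alone cannot tell a difference in its RNA from a difference in read assignment. Of the 46 genes measured in the related lists that hold no synthetase, EEF1B2 and CHAC1 were lower by 1.5-fold or more on CPM plus 1 (0.643% of measured genes). Of the same genes, 0 were higher by as much (1.02%). EEF1A2 followed at -0.11, and GFM2 and EEF1D, each at 0.071, were highest. EEF1D had only 147 and 173 counts, and its interval of 0.850 to 1.34 included 1-fold. EEF1A1, which brings charged tRNA to the ribosome, had 481501 and 537821 counts and a ratio of 1.01.

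Of the 36 members, 13 overlap another listed gene past the minimum, all 13 on the opposite strand and 2 on the same strand as well. Neighbours within 1 Mb that were 1.5-fold different or more on CPM plus 1 were found for 7 members, or 19.4%, against 18.4% of the 13818 measured genes with a position. Besides CENPP beside IARS1, NAP1L4, a histone chaperone near CARS1, had 662 and 2764 counts, a ratio of 3.78 (3.47 to 4.12), while CARS1 was at 1.06. NPIPB5 near EARS2 was at 0.447, ATP8B1-AS1 beside NARS1 at 0.518, TMEM42 near LARS2 at 0.266 from 68 and 20 counts, and PCDHGB7 near both histidyl genes at 1.96. EARS2, NARS1, LARS2, HARS1 and HARS2 themselves stood between 0.921 and 1.09. For these neighbours too, gene totals alone cannot tell a difference in RNA from a difference in read assignment.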

How the data were processed

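Per the file headers, the authors' table gives whole counts and FPKM for each gene in 2 libraries of poly(A) RNA made with dUTP strand marking and PCR, per the labels' protocols. The authors' log2 fold change was deposited apart from the counts, beside a second set of FPKM values. Per the submitters' processing notes reads were placed on GRCh38. The aligner, the counter with its strand setting and the annotation were not given in the sources used here. Libraries were scaled by TMM (edgeR 4.0.16, R 4.3.3), with DESeq2 1.42.0 size factors, library totals, other pseudocounts, other minimums, FPKM plus 1 and halved counts as alternatives. Log2 ratios used CPM plus 1 and genes whose counts in both libraries sum to 50 or more. Ratios of CPM carry 95% exact counting intervals, and the quotients of pairs large-sample ones. Reads carry no molecular identifiers, so intervals cover counting error only. The computation was checked on counts simulated with counting error only. That check covers neither the surplus of even counts nor variation between cultures. Positions and transcript sequences came from GENCODE release 29. Python 3.11.15 was used with scipy 1.17.1, pandas 2.3.3, matplotlib 3.10.9 and numpy 2.4.6. All members were described, in each other list the 2 highest and 2 lowest, and neighbours at least 1.5-fold different. Members and lists were chosen with earlier results of these data known. One list of related genes is not reported here.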

Additional observations from a re-analysis of the deposited data

How the results depend on the processing

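Over the other scalings, pseudocounts and minimums and FPKM plus 1, the median log2 ratio ran from -0.068 to -0.054 for cytosolic enzymes, from -0.032 to -0.018 for mitochondrial ones and from -0.017 to -0.0025 for the complex. The log2 ratio of IARS1 was -2.76 with a pseudocount of 5 CPM and -1.88 with FPKM plus 1, and that of IGF2BP3 was 0.88 with FPKM plus 1, where the constant weighs more. At a threshold of 1.2-fold, 3 members differed (IARS1, AIMP2 and AARS2, all lower; 5.74% of all genes were that much lower). Intervals on one side of 1-fold numbered 23 from the counts and 16 from halved counts. Leaving out the 13 members that overlap another gene, a choice made after seeing the data, gave medians of -0.035 (cytosolic), -0.013 (mitochondrial) and 0.025 (multisynthetase complex). The median of the complex thus changed sign there and without IARS1, at values near 0. Taking lengths from the longest coding transcript, also chosen after seeing the data, put the cytosolic over mitochondrial level at 3.98 in the control and 4.10 with overexpression, from 4.31 and 4.10. No paired analysis was possible because each group has 1 library. Depth limits PARS2, TARS3, FARS2 and MARS2 most, and the lack of replicates limits every ratio.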
